A study of Homo sapiens with 8 samples.

Results

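Transcription factors that set intestinal identity were examined in DLD-1 cells, an established line of human colorectal adenocarcinoma, after transfection with miR-143. The rule listed 9 genes, CDX1, CDX2, HNF4A, HNF4G, GATA6, ELF3, SOX9, EHF and ATOH1, and took every probe set annotated to a single one of them. Such probe sets were found for 8 of the 9 genes, and HNF4A was not analysed here. The 8 genes had 19 of the 41091 probe sets with a single gene symbol, and 8 of the 19752 genes. The rule that chose them uses gene names and no measured value. Cells received 50 nM miR-143 duplex (4 biological replicates) or were mock transfected (4 biological replicates), with Lipofectamine 2000 in both groups, and total RNA was taken after 24 h and measured on 8 Affymetrix HG-U133 Plus 2.0 arrays. All arrays are from this 1 line, and since the controls were mock transfected, an effect of carrying any duplex cannot be told apart from that of miR-143. Values are log2 expression values made by RMA, which corrects the background, brings the arrays to a common distribution and summarises the probes of a probe set. The deposited arrays nevertheless did not share 1 distribution. Replicate 4 had medians of 7.163 (miR-143) and 7.154 (mock) and 95th percentiles of 10.98 and 11.06. The other arrays had medians of 7.214 to 7.235 and 95th percentiles of 10.59 to 10.80. The number of arrays limits the precision.

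The intestinal epithelium is held in its identity by a small network of transcription factors. The homeobox factors CDX1 and CDX2 open and drive intestinal genes, the nuclear receptors HNF4A and HNF4G turn on brush-border and lipid-handling genes of enterocytes, and the zinc finger factor GATA6 acts with them in gut endoderm and in proliferating crypt cells. SOX9, an HMG-box factor, marks the crypt base, ATOH1, a basic helix-loop-helix factor, commits progenitors to the goblet, Paneth and enteroendocrine lineages, and ELF3 and EHF are ETS factors restricted to epithelia. Colorectal tumours often keep parts of this network and lose others. miR-143 itself is a microRNA of the mesenchymal cells of the gut wall, and a microRNA lowers its targets by pairing its seed with their transcripts.

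The sequence of the transfected microRNA is shown because its seed sets which transcripts can pair with it, followed by the stretches of member promoters in which letters known from the factors of this group were found. All are from RefSeq tables of build GRCh38.p14. In miR-143-3p, at chr5:149428978-149428998 on the plus strand, capitals mark the seed (bases 2 to 8), whose complement in a transcript reads TCATCTC in DNA letters. No transcript sequence was used, so sites in the members were not searched.
miR-143-3p: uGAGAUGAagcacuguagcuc
Promoters, from 250 bases before to 50 after a gene's start, were found for CDX2, GATA6, ELF3, EHF, ATOH1 and HNF4A. Both strands were searched for short letters that these families of factors are known to read. Those of the caudal-type factors were TTTATNG, those of zinc finger factors such as GATA6 were AGATAAG, and those of HMG-box factors such as SOX9 were ACAATGG. For the ETS family the letters CCGGAAG were used, and for the nuclear receptors HNF4A and HNF4G the letters CAAAGTC. The Wnt effectors of the TCF family were searched by CTTTGAT, basic helix-loop-helix factors by the E-box letters CAGCTG, and the TATA box by TATAAA. In the stretches below, on the strand of the gene, capitals mark the match. The CDX2 stretch (chr13:27969480-27969506, minus strand) and the ELF3 stretch (chr1:202010542-202010568, plus strand) hold the CDX letters in reverse, and in ELF3 they overlap TATAAA. The ATOH1 stretch (chr4:93828595-93828621, plus strand) holds the TCF letters, and the EHF stretch, at the later of its 2 listed starts (chr11:34632418-34632444, plus strand) the SOX letters in reverse.
CDX2: aagctcttaaCAATAAAggtttgaata
ELF3: aggggacacaCTATAAAgccctgagct
ATOH1: tgtaaaaactCTTTGATtggctgctcg
EHF: cataaacacaCCATTGTctcagagaga
Of all 35116 promoters 9.73% held the CDX letters, 11.5% the TATA letters, 2.62% the TCF letters and 3.16% the SOX letters, so these matches are a description and not sites of binding. The other matches in these promoters were E-box letters in GATA6 and HNF4A, which 17.9% of all promoters held, and no match says only that the letters are not in the window.

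The arrays were first read for what the cells express. The values of different probe sets depend on their probes and are brightnesses, not amounts of RNA that can be ranked between genes. The median over all probe sets was 7.20. Of the colorectal epithelial markers, the brightest probe sets of EPCAM, CDH1, KRT8, KRT18, KRT19 and CDH17 averaged 9.87 to 14.73 in mock arrays. Those of VIL1, GPA33, LGALS4 and CEACAM5, markers of more differentiated colonocytes, averaged 7.14 to 7.65, within the range of 6.40 to 8.15 shown by 22 genes of cell types outside the colon epithelium. Among these 22 genes, which include PTPRC, CD3E, PECAM1, COL1A1 and ALB, 0 were called with miR-143 and the median log2 fold change was −0.0060. Replicate 4 of both groups stood apart on the first principal component (63.6% of the variance), with the miR-143 array at 33.1 and the mock array at 35.3, while the other arrays ran from −24.8 to −4.5. Values without mock replicate 4, or without replicate 4 of both groups, are given beside a number of the results. Array quality was not measured here.

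None of the factors passed the test for a change with miR-143. Of the 19 probe sets 0 were called lower and 0 higher by limma at an adjusted p of 0.05, and each had an adjusted p of 1.0 after rounding. Over all 41091 probe sets 0.00243% were called lower and 0% higher. At an unadjusted p under 0.05 there were 4 lower and 0 higher among the 19, where 1.86% of all probe sets were lower and 0.713% higher. These 4 belonged to ELF3 and EHF, with 2 each. In 2 probe sets, both of ELF3, the highest miR-143 array was lower than the lowest mock array, and in 0 the reverse held, while 1.25% of all probe sets were separated downward and 0.781% upward. The log2 fold change was negative in 14 of the 19 probe sets and in 55.8% of all, and its median was −0.04 over the members and −0.0091 over all. Probe sets of 1 gene measure the same RNA, so they are not separate observations. In these cultures fewer cells with a transcript and less of it per cell cannot be told apart.

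**Figure D1:**
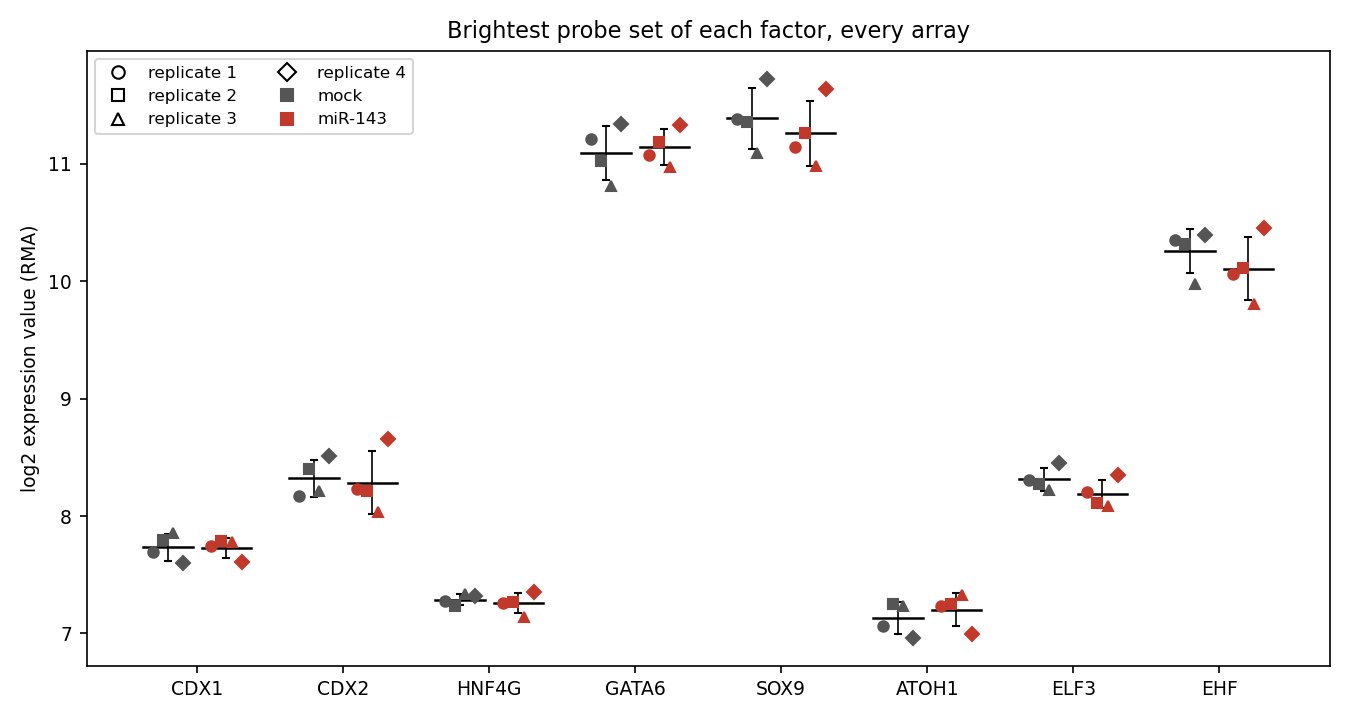
Log2 expression value (RMA, vertical axis) of the brightest probe set of each of the 8 measured factors in each of the 4 mock (grey) and 4 miR-143 (red) arrays, with marker shape giving the replicate number, a line at the mean and bars of 1 SD. The groups overlap for all 8 genes, and replicate 4 (diamonds) is the highest array of both groups for CDX2, GATA6, SOX9, ELF3 and EHF.

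**Figure D2:**
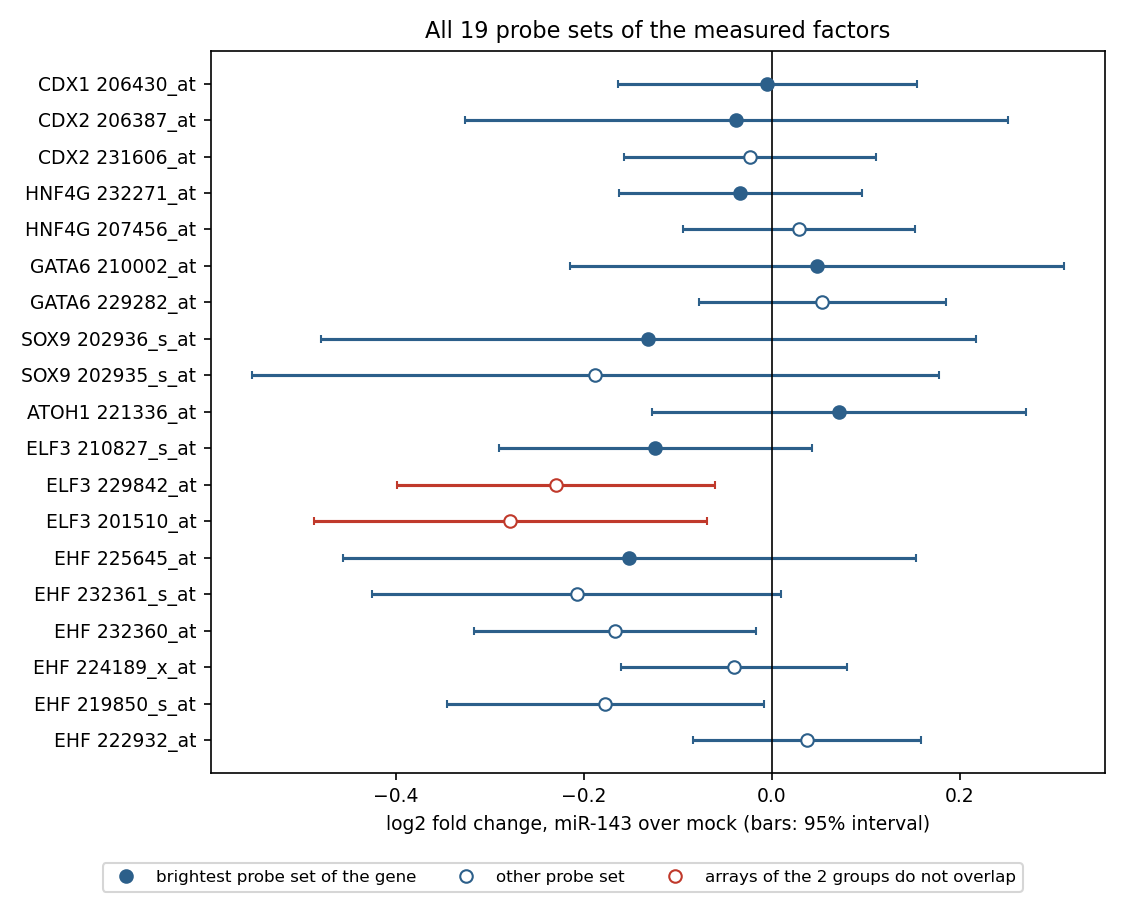
Difference between miR-143 and mock means on the log2 scale, with its 95% interval from limma, for all 19 probe sets, filled for the brightest probe set of a gene and red where the arrays of the 2 groups do not overlap. The intervals of 15 probe sets include 0, and the 4 that do not are 2 of ELF3 and 2 of EHF, of which only the ELF3 pair has groups that do not overlap.

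Neither caudal-type factor passed the test. CDX1, measured by probe set 206430_at, read 7.69, 7.79, 7.86 and 7.60 in mock replicates 1 to 4 and 7.74, 7.79, 7.78 and 7.61 in miR-143 replicates 1 to 4. Its arrays spanned nearly the same range in both groups, and its values lay within the range of the genes of other cell types. CDX1 differed by −0.0049 on the log2 scale (standard error 0.071), with an interval of −0.16 to 0.15, which is 89.3% to 111% of the mock level. CDX2, the master factor of intestinal fate, read 8.17, 8.40, 8.21 and 8.51 in mock and 8.23, 8.22, 8.04 and 8.66 with miR-143 on its brighter probe set 206387_at. The lowest and the highest of these 8 arrays were both miR-143 arrays, so the groups overlapped throughout. Its log2 fold change was −0.04 (standard error 0.13, interval −0.33 to 0.25), or 97.4% of mock. With mock replicate 4 left out it was 0.02, with miR-143 replicate 3 left out 0.05, with miR-143 replicate 4 left out −0.16 and without replicate 4 of both groups −0.10, so its sign is not settled. The other CDX2 probe set, 231606_at, averaged 7.025 ± 0.07 (SD, n = 4) in mock and 7.001 ± 0.08 (SD, n = 4) with miR-143, below the median of all probe sets. Within each array the difference of CDX1 from CDX2 averaged −0.59 ± 0.24 (SD, n = 4) in mock and −0.55 ± 0.35 (SD, n = 4) with miR-143, and the change of 0.03 did not pass (exact two-sided permutation test, p = 0.857, adjusted p = 0.857 over 2 pairs of related factors).

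HNF4G and GATA6, which act with CDX2 on enterocyte genes and in gut endoderm, did not pass either. HNF4G read 7.27, 7.23, 7.34 and 7.31 in mock and 7.26, 7.26, 7.14 and 7.35 with miR-143 on its brighter probe set 232271_at, with both the lowest and the highest array in the miR-143 group. The difference was −0.03 on the log2 scale (standard error 0.058, interval −0.16 to 0.10). Its second probe set, 207456_at, was the dimmest of the 19 and averaged 6.57 ± 0.08 (SD, n = 4) in mock and 6.59 ± 0.04 (SD, n = 4) with miR-143, with a log2 fold change of the other sign, 0.03. Both sets of values lay within the range of genes of other cell types, and whether HNF4G is expressed cannot be read from them. GATA6 was bright on probe set 210002_at, with 11.21, 11.02, 10.81 and 11.34 in mock and 11.08, 11.19, 10.97 and 11.33 with miR-143. The groups overlapped, and mock replicate 3 was the lowest array. For GATA6 the log2 fold change was 0.05 (standard error 0.12, interval −0.21 to 0.31), or 103% of mock. It became −0.05 without mock replicate 3, −0.01 without miR-143 replicate 4 and 0.13 without mock replicate 4. The second GATA6 probe set, 229282_at, averaged 7.26 ± 0.06 (SD, n = 4) in mock and 7.31 ± 0.08 (SD, n = 4) with miR-143, far dimmer than the first, and its log2 fold change of 0.05 was nearly the same, but fell to 0.03 without mock replicate 4 and 0.01 without replicate 4 of both groups.

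SOX9, the factor of the crypt base, was bright on both of its probe sets and had negative but uncalled changes. On probe set 202936_s_at it read 11.39, 11.36, 11.09 and 11.73 in mock and 11.15, 11.27, 10.99 and 11.64 with miR-143. Replicate 3 was the lowest and replicate 4 the highest array of each group, and this spread exceeded the difference between the groups. Same-numbered arrays shared it, and miR-143 minus mock was −0.24, −0.09, −0.11 and −0.09 for replicates 1 to 4. With the replicate number as a block the standard error was 0.050 and the limma adjusted p was 0.45. Whether the numbers pair the arrays is not settled. The log2 fold change was −0.13 (standard error 0.16, interval −0.48 to 0.22), or 91.3% of mock, and it was −0.02 without mock replicate 4, −0.04 without miR-143 replicate 3, −0.26 without miR-143 replicate 4 and −0.15 without replicate 4 of both groups. The second probe set, 202935_s_at, read 11.08, 11.08, 10.60 and 11.48 in mock and 10.83, 10.91, 10.67 and 11.08 with miR-143. Its log2 fold change was −0.19 (standard error 0.16), and its interval of −0.55 to 0.18 reached lower than that of any other probe set. It was −0.05 without mock replicate 4 and −0.12 without replicate 4 of both groups. On this probe set the same-numbered differences were −0.25, −0.17, 0.07 and −0.40. SOX9 was the only factor whose brightest probe set had an SD above 0.25 over the 8 arrays (0.26). Of 1235 genes above that SD that were compared, MORC4 and ADI1 followed its values most closely over the 8 arrays, with root mean square distances of 0.034 and 0.041 on the log2 scale after each gene was centred on its mean. This likeness is a description over arrays that include replicate 4.

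ATOH1, the switch of the secretory lineage, was dim. Its single probe set, 221336_at, read 7.07, 7.25, 7.23 and 6.96 in mock and 7.23, 7.25, 7.33 and 6.999 with miR-143, with replicate 4 lowest in both groups. The values lay near the median of all probe sets and within the range of genes of other cell types. The log2 fold change of ATOH1 was the highest of the 19 at 0.07 (standard error 0.089), and its interval ran from −0.13 to 0.27. It was 0.02 without mock replicate 4, when GATA6 was higher, 0.03 without miR-143 replicate 3, 0.14 without miR-143 replicate 4 and 0.11 without mock replicate 2. In an exact two-sided permutation test of the arrays p was 0.457.

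Probe sets of the epithelial ETS factors ELF3 and EHF held the lowest log2 fold changes of the 19, at −0.28, −0.23 and −0.21. The next was SOX9 probe set 202935_s_at at −0.19. On the brightest probe sets EHF was at −0.15, SOX9 at −0.13 and ELF3 at −0.12. All 3 probe sets of ELF3 and 5 of the 6 of EHF had a negative log2 fold change, and none passed over all probe sets. On probe set 201510_at ELF3 read 7.55, 7.63, 7.60 and 7.92 in mock and 7.46, 7.38, 7.22 and 7.52 with miR-143. The groups did not overlap, with a gap of 0.03 between the highest miR-143 and the lowest mock array. Its log2 fold change of −0.28 (standard error 0.093, interval −0.49 to −0.07) was the lowest of the 19 and corresponds to 82.5% of mock. On probe set 229842_at ELF3 read 7.73, 7.71, 7.67 and 7.99 in mock and 7.56, 7.63, 7.52 and 7.49 with miR-143, again without overlap. The values of both probe sets lay within the range of the mock means of genes of other cell types. The log2 fold change there was −0.23 (standard error 0.076, interval −0.40 to −0.06), or 85.3% of mock. For both probe sets the exact two-sided permutation p was 0.0286, the smallest that 4 arrays against 4 can give, and they were singled out after their values were seen. The brightest ELF3 probe set, 210827_s_at, read 8.31, 8.27, 8.22 and 8.45 in mock and 8.21, 8.11, 8.09 and 8.35 with miR-143, and here the groups overlapped. Its log2 fold change was −0.12 (standard error 0.074, exact permutation p = 0.171), smaller than on the other probe sets. In all 3 probe sets mock replicate 4 was the highest array. Without it the log2 fold changes were −0.20 for 201510_at, −0.16 for 229842_at and −0.08 for 210827_s_at, and without replicate 4 of both groups they were −0.24, −0.14 and −0.13.

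EHF was bright on probe set 225645_at, with 10.35, 10.32, 9.98 and 10.39 in mock and 10.06, 10.12, 9.80 and 10.45 with miR-143. The highest array, replicate 4, was a miR-143 array, and the groups overlapped. The log2 fold change was −0.15 (standard error 0.14, interval −0.46 to 0.15), or 90.0% of mock. It was −0.05 without miR-143 replicate 3, the lowest array, and −0.27 without miR-143 replicate 4. Among the dimmer probe sets the log2 fold change was −0.21 in 232361_s_at (standard error 0.097), −0.18 in 219850_s_at (standard error 0.075) and −0.17 in 232360_at (standard error 0.067). The unadjusted p from limma was 0.041 for 219850_s_at and 0.0322 for 232360_at, but each had arrays of the groups that overlapped, and both read within the range of genes of other cell types. The probe sets 224189_x_at and 222932_at had −0.04 and 0.04. The annotation gives 232360_at and 232361_s_at the same source sequence. Within each array the difference of ELF3 from EHF, taken on the brightest probe sets, averaged −1.95 ± 0.14 (SD, n = 4) in mock and −1.92 ± 0.17 (SD, n = 4) with miR-143. The change of 0.03 did not pass (exact two-sided permutation test, p = 0.8286, adjusted p = 0.857 over 2 pairs), and its sign turned when the mean of all probe sets of each gene was used, with −0.09.

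**Figure D3:**
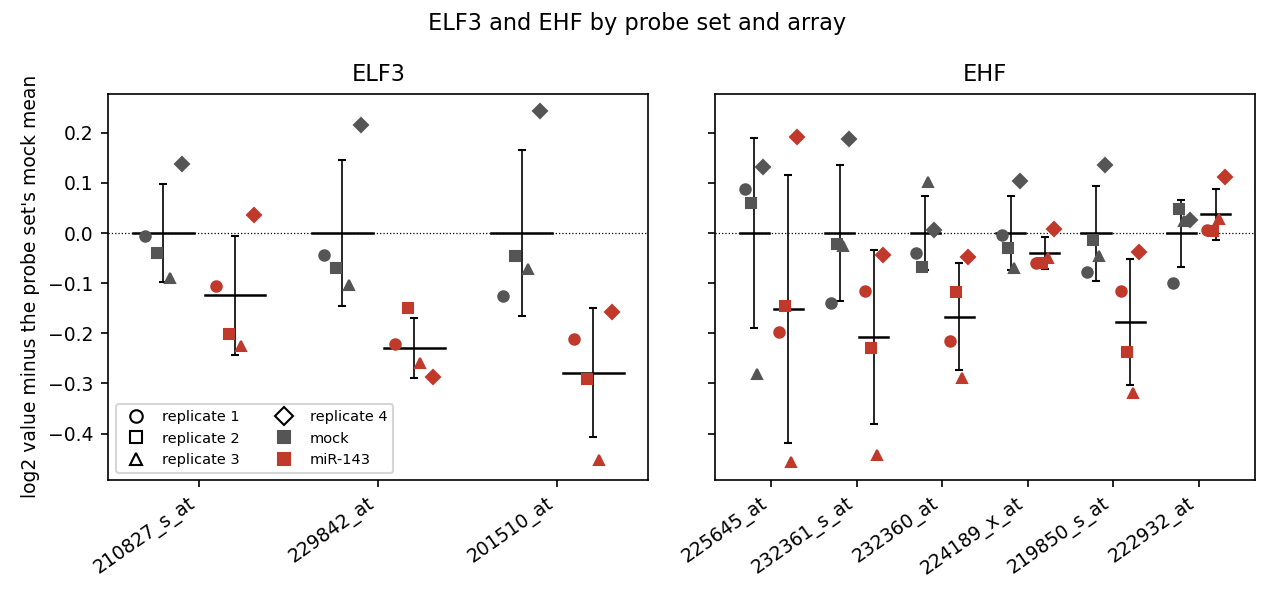
Log2 values of the 3 ELF3 and 6 EHF probe sets in each array, as the difference from the mean of the 4 mock arrays of the same probe set, with mock in grey, miR-143 in red, marker shape for the replicate number, a line at the mean and bars of 1 SD. In 201510_at and 229842_at of ELF3 all red points lie under all grey ones, while in the other 7 probe sets the groups overlap, and mock replicate 4 is the highest mock array of all 3 ELF3 probe sets.

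Replicate 4 was set against the other replicates of its group for each factor. In mock arrays replicate 4 exceeded the mean of replicates 1 to 3 by 0.45 for SOX9, 0.32 for GATA6, 0.25 for CDX2, 0.18 for ELF3, 0.18 for EHF and 0.03 for HNF4G on the brightest probe sets. In miR-143 arrays the same difference was 0.50 for SOX9, 0.50 for CDX2, 0.46 for EHF, 0.25 for GATA6, 0.21 for ELF3 and 0.13 for HNF4G. CDX1 and ATOH1 went the other way in both groups, at −0.19 and −0.22 in mock and at −0.17 and −0.27 with miR-143. Over all probe sets the median of this difference was 0.04 in mock and 0.03 with miR-143, and 90% of the values lay between −0.29 and 0.43 in mock and between −0.28 and 0.51 with miR-143. With miR-143 all 8 factors lay within the range of their own group, and in mock SOX9 lay above it. CDX2, GATA6, SOX9, ELF3 and EHF thus lay high and CDX1 and ATOH1 low in replicate 4 of both groups. The factors that lay high averaged 8.31 to 11.39 in mock, and CDX1, HNF4G and ATOH1 averaged 7.74, 7.29 and 7.13. Replicate 4 of both groups also had a lower median and a higher 95th percentile than the other arrays. Whether the split goes beyond this wider spread was not tested, since the percentiles over all probe sets were not divided by brightness. Over all probe sets replicate 4 was the highest array of its group for 44.0% with miR-143 and 45.8% in mock, and the lowest for 32.4% and 31.4%. The part of replicate 4 in the fold changes was not tested beyond leaving it out.

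**Figure D4:**
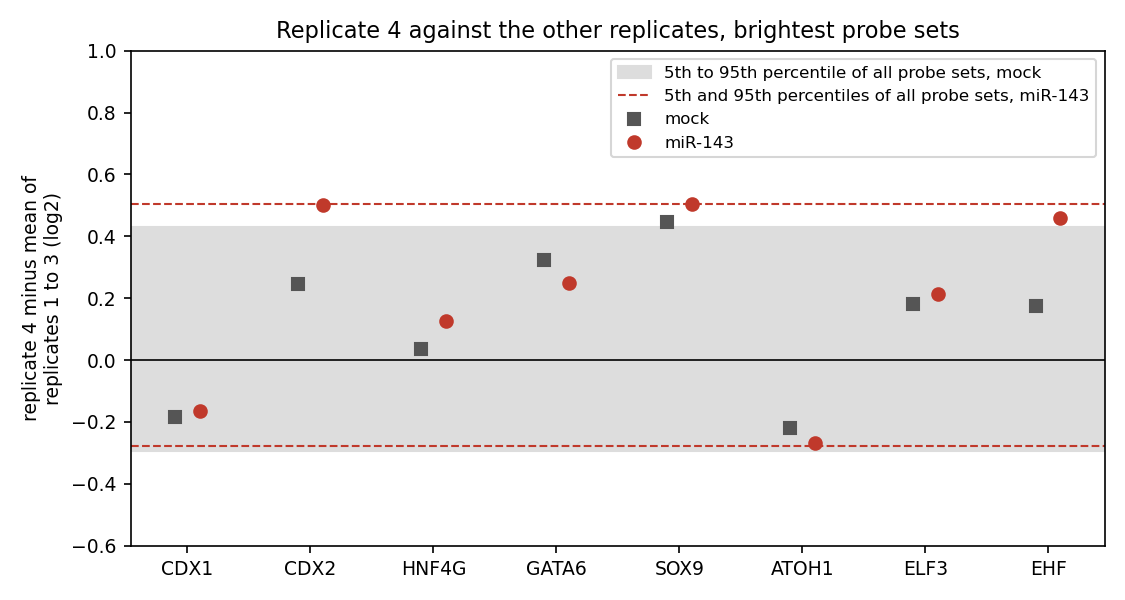
Value of replicate 4 minus the mean of replicates 1 to 3 on the log2 scale for the brightest probe set of each factor, in mock (squares) and miR-143 (circles). The grey band spans the 5th to 95th percentiles of all probe sets in mock, −0.29 to 0.43, and the dashed lines those in miR-143, −0.28 and 0.51. SOX9 in mock lies above the range of its group, all miR-143 points lie within theirs, and CDX1 and ATOH1 lie below 0 in both groups.

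Genes that act beside or below these factors were read from lists written for this work, each gene by its brightest probe set, where 0 of 19752 genes (0%) were called lower and 0 higher over all probe sets. At an unadjusted p under 0.05 limma had 1.88% of these genes lower and 0.815% higher. The log2 fold change was negative in 55.6% of them. Among 31 other transcription factors of gut endoderm and intestine 0 were called, 17 had a negative log2 fold change, and the median was −0.0072 against −0.0091 over all genes. HES1, the Notch effector that opposes ATOH1, read 9.26, 9.18, 9.26 and 9.34 in mock and 9.02, 9.02, 9.09 and 9.26 with miR-143, and differed by −0.16 on the log2 scale (standard error 0.066). ASCL2, a stem cell factor under Wnt control, had −0.23 (standard error 0.10), KLF5, a factor of proliferating crypt cells, −0.15 (standard error 0.086), and GATA4, the foregut and small intestinal relative of GATA6, −0.10 (standard error 0.068). The arrays of both groups overlapped for each of these 4 genes. GATA4 averaged 7.46 in mock, within the range of genes of other cell types. Without mock replicate 4 ASCL2 was at −0.15 and KLF5 at −0.14, and without replicate 4 of both groups they were at −0.23 and −0.06.

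Of 43 genes in the list of enterocyte genes and targets of CDX2 and HNF4A 0 were called. Of these, 20 were negative and 23 positive, with a median of 0.0030, and only 16 were brighter than the median of all probe sets. The list also holds TFF3, a gene of the secretory lineage list, and whether each gene is a target was not tested. CA2, the carbonic anhydrase of surface colonocytes, stood out with 9.87, 9.76, 9.72 and 10.17 in mock and 9.41, 9.34, 9.25 and 9.65 with miR-143. The groups did not overlap, and the log2 fold change was −0.47 (standard error 0.11, limma adjusted p = 0.933). Fitted with the replicate number as a block, limma gave CA2 an adjusted p of 0.00123, and whether the numbers pair the arrays is not settled. VIL1, the actin bundler of brush borders, also had groups that did not overlap, at a difference of −0.10 on the log2 scale (standard error 0.05), while TFF3 had −0.10 (standard error 0.074) and CDHR2, an adhesion protein of microvilli, 0.06 (standard error 0.063), which was 0.0042 without mock replicate 4. MYO1A, a brush-border myosin, was the enterocyte gene with groups apart upward, at 0.15 (standard error 0.05), on a probe set dimmer than the median, and it is named after its values were seen. Over all genes 1.24% had groups apart downward and 0.719% upward. In mock VIL1, TFF3 and CDHR2 averaged 7.65, 7.91 and 7.64, within the range of genes of other cell types. CDH17, an intestinal cadherin controlled by CDX2, averaged 9.87 ± 0.14 (SD, n = 4) in mock and 9.86 ± 0.09 (SD, n = 4) with miR-143. It is also one of the 10 colorectal epithelial markers, of which 0 were called. Of these, 9 had a negative log2 fold change and 1 a positive one, with a median of −0.07, where 55.6% of all genes were negative. KRT8 had −0.32 (standard error 0.39), CDH1 −0.19 (standard error 0.11), KRT18 −0.16 (standard error 0.18) and KRT19 −0.11 (standard error 0.30). Without mock replicate 4 these were −0.15, −0.10, −0.0071 and 0.11, and without replicate 4 of both groups −0.54, −0.17, −0.17 and −0.19.

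Of 30 genes of the secretory lineage, which lies downstream of ATOH1, 0 were called and 16 exceeded the median of all probe sets. The log2 fold change was negative in 23 (76.7%), where 55.6% of all genes were negative, and its median was −0.03. ERN2, the stress sensor of goblet cells, read 8.66, 8.69, 8.81 and 8.71 in mock and 8.65, 8.56, 8.49 and 8.60 with miR-143, barely without overlap, and its log2 fold change was −0.14 (standard error 0.056). ZG16, CREB3L1 and SPINK4 had −0.09, −0.08 and −0.07, with overlapping groups. Their mock means of 7.27, 7.53 and 7.47 lay within the range of genes of other cell types. TFF3 is in this list and in the enterocyte list. Of 19 genes of crypt stem and progenitor cells, which share the crypt base with SOX9, 0 were called. Of these, 11 (57.9%) were negative and the median was −0.03. For CDCA7 the difference was −0.27 on the log2 scale (standard error 0.084), with 10.99, 10.91, 10.77 and 11.15 in mock and 10.80, 10.68, 10.58 and 10.70 with miR-143. MYC had −0.24 (standard error 0.17) and TNFRSF19 −0.16 (standard error 0.12). These became −0.08 and −0.06 without mock replicate 4, and −0.21 and −0.15 without replicate 4 of both groups. ASCL2, given above at −0.23, is in this list and in that of the transcription factors. The median of this list was 0.01 without miR-143 replicate 3 and −0.09 without miR-143 replicate 4. Among 13 foregut genes 0 were called, 8 exceeded the median of all probe sets, and the median log2 fold change was −0.02. ATP4A was at −0.08, CLDN18 at −0.08, TFF2 at −0.05 and KRT7 at 0.06. In mock ATP4A, CLDN18 and TFF2 averaged 7.31, 7.46 and 7.58, within the range of genes of other cell types. KRT7 averaged 8.32. Without mock replicate 4 KRT7 was at −0.06, CLDN18 at −0.13 and ATP4A at −0.11. Without replicate 4 of both groups they were at −0.0036, −0.06 and −0.01. Counts at an unadjusted p under 0.05 were 2 lower for the transcription factors, 1 lower and 1 higher for enterocyte genes, 1 lower for the secretory lineage, 2 lower for the crypt genes, with ASCL2 counted in both lists, and 0 for the foregut genes.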

How the data were processed

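The authors deposited log2 expression values for 54675 probe sets and 8 arrays, which by the processing notes they made with RMA in the affy package, with versions not given in the sources used here. The values were used as deposited. Probe sets were named from the platform annotation and brought to current symbols by Entrez identifier or older symbol. A single symbol was carried by 41091, several by 1801 and none by 11721, and 62 were controls. Groups were compared by limma 3.58.1 (lmFit, eBayes, two-sided) in R 4.3.3 over all 41091 without a block, as the methods name limma and no block. The Benjamini-Hochberg adjustment was used, with 0.05 as the threshold. Single values were tested by exact permutation of the arrays in Python 3.11.15. The fit was run on simulated arrays with independent noise and no effect shared by same-numbered arrays, so this cannot bear on the pairing. The third planned pair of related factors could not be formed. Alternatives were loess, centring, array weights, other summaries, left-out arrays and a filter keeping probe sets with an interquartile range above 0.25. The paper removed genes of low variance by a cutoff of 0.25, which may be another measure. Named are all members, and of each list the 4 genes of lowest p above the median brightness, and the epithelial markers. CDH17, HNF4A, PTPRC and other genes named without a fold change are named as list members. The rule for the members uses gene names alone, but the choice of these genes and of the lists was made with earlier results of these data known, so it was not blind to them. Nothing in the labels says what a replicate number stands for.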

Additional observations from a re-analysis of the deposited data

Results flagged for a closer look

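A single array stood far from the other 3 of its group in 2 of the 38 groups of 4 arrays that the 19 probe sets give, and chance flags about 1 group in 20. In EHF probe set 224189_x_at miR-143 replicate 4 read 7.484 against 7.417 to 7.426 in the other 3. In EHF probe set 222932_at mock replicate 1 read 6.711 against 6.835 to 6.858 in the other 3. Neither probe set was called in any setting.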

How the results depend on the processing

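No probe set of the factors was called in any of the 23 alternatives, and the lowest adjusted p of the 8 brightest and 2 other ELF3 probe sets was 0.051, for ELF3 probe set 201510_at with pairs and without replicate 1. The counts over all probe sets did depend on the setting. Limma called 1 lower and 0 higher as reported, 37 and 23 after cyclic loess, 35 and 19 with array weights, and 32 and 19 without replicate 4 of both groups. It called 0 lower after median centring, with an intensity trend, without low-variance probe sets, with the brightest probe set of each gene and with the mean of its probe sets, and 0 to 1 lower with 1 array left out. With the replicate block there were 171 lower and 45 higher, with block and loess (chosen after seeing the data) 104 and 69, and with the block and a pair left out 136, 122, 32 and 49 lower and 21, 14, 8 and 19 higher without replicates 1 to 4 in turn. The replicate numbers were not taken as pairs, which is a close decision. Over the tested probe sets deviations of same-numbered arrays correlated at 0.0787, 0.108, 0.558 and 0.772 for replicates 1 to 4, over the brightest probe set of each gene at 0.109, 0.166, 0.576 and 0.808, each above 0.1, and after cyclic loess at 0.0513, −0.00124, 0.374 and 0.651. In the first replicates 1 and 2 correlated better with another number, at up to 0.472. With the block 0 of the 19 probe sets were called, with the lowest adjusted p at 0.079 for ELF3 probe set 201510_at (log2 fold change −0.28), 6 of the 19 were lower in every same-numbered pair where 10.2% of all were, and CA2 was called at an adjusted p of 0.00123.

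Alternatives were followed for the 8 brightest probe sets and the 2 ELF3 probe sets without overlap, singled out after their values were seen. The rest of the 19 were not followed. Of 217 such fold changes 202 kept their sign and 15 turned it, all of CDX1, CDX2, HNF4G and GATA6. Those of SOX9, ATOH1, ELF3 and EHF kept it. With all arrays the block, the intensity trend, the filters and the brightest probe set of each gene leave the estimate unchanged. There the sign could not turn, so the count of 202 overstates stability. CDX1 turned to 0.0095 after cyclic loess with or without the block and to 0.0057 with array weights. With 1 array left out the log2 fold change ran from −0.051 to 0.037 for CDX1, from −0.16 to 0.045 for CDX2, from −0.065 to 0.0038 for HNF4G and from −0.047 to 0.13 for GATA6, and with the block it was 0.020 for CDX1, 0.0077 for CDX2 and 0.020 for HNF4G without replicate 3 and 0.011 for CDX2 without replicate 2. The sign for CDX1 turned without miR-143 replicate 4 or mock replicate 2 or 3, for CDX2 without miR-143 replicate 3 or mock replicate 4, for HNF4G without miR-143 replicate 3, and for GATA6 without miR-143 replicate 4 or mock replicate 3. The change of CDX1 against CDX2 ran from −0.075 to 0.20 with 1 array left out, below 0 without miR-143 replicate 2 or 3 or mock replicate 4. That of ELF3 against EHF ran from −0.040 to 0.091, below 0 without miR-143 replicate 3 or mock replicate 1 or 2, and it was −0.093 with the mean of the probe sets of each gene, where the exact permutation p was 0.0286. The list medians moved by less than the SD of the list's level between arrays, which is not an error of a fold change. With 1 array left out the median ran from −0.016 to 0.044 for enterocyte genes and from −0.089 to 0.014 for crypt genes. It crossed 0 for every list followed except the secretory lineage, which ran from −0.063 to −0.014. The list of epithelial markers was not followed. The causes were not tested.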
